A study of Homo sapiens with 12 samples.

Results

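Knockdown of p53 was compared with the control vector in PEO1 cells that had been exposed to fulvestrant, across all expressed genes. PEO1 is an established human ovarian cancer cell line, and the series title describes its p53 as mutant. The comparison used 6 of the 12 libraries, chosen by their labels: 3 from cells carrying a short hairpin RNA against p53 (shp53) and 3 from cells carrying the empty lentiviral vector (pLKO.1), both with 10 μM fulvestrant for 48 h. Cells of all groups grew in RPMI-1640 with 10% serum and 2 μg/mL puromycin. The treatment protocol names 100 pM estradiol (E2) alongside fulvestrant. The remaining 6 libraries, 3 of each line, were untreated at 0 h, and the labels leave unstated whether these also received estradiol. The labels name a single hairpin construct and do not say whether each line was a pool or a clone, so an effect of the hairpin itself or of the line cannot be told apart from loss of p53. The labels do not state whether libraries 1 to 3 of a group were separate cultures. Their spread, and with it every p-value, may therefore be technical.

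p53 is a transcription factor that normally induces genes of cell cycle arrest, DNA repair and apoptosis after stress, such as CDKN1A, DDB2 and BAX. Many ovarian carcinomas carry missense mutant p53, which accumulates and loses part of this activity. Fulvestrant is an estrogen receptor antagonist that also leads to degradation of the receptor protein encoded by ESR1. Genes that copy DNA in S phase (the MCM helicase, the origin recognition complex, polymerases and the sliding clamp PCNA) are classically switched on by E2F factors, whereas many genes of mitosis are controlled through a CHR promoter element bound by the DREAM complex. The series asks how mutant p53 bears on estrogen receptor activity and resistance to endocrine therapy. The comparison within fulvestrant asks what the knockdown changes while the receptor is antagonised.

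The 6 treated libraries held between 21581887 and 25386239 counts, and 15715 genes had enough counts to be tested. Treated libraries differed among themselves in GC-rich transcripts, within each group as well as between the groups. In the most GC-rich bin of 769 genes (GC content about 65.1%), the median level relative to the mean of the 6 libraries was 0.95, 0.44 and −0.71 on the log2 scale in control-vector libraries 1, 2 and 3, and 0.03, −0.81 and 0.17 in knockdown libraries 1, 2 and 3. Control-vector library 3 and knockdown library 2 thus stood apart from the others of their groups, and the main results are given with and without that pair, and after a correction of each library for GC content. Leaving out the pair does not balance the groups in GC content. In that bin the remaining control-vector libraries (0.95 and 0.44) both lay above the remaining knockdown libraries (0.03 and 0.17). Across genes, the log2 fold change between knockdown and control vector had a Spearman correlation of −0.41 with GC content, and of −0.01 after the correction. The correction removes such a trend by construction, and would also remove a knockdown effect that followed GC content. Ovarian carcinoma markers were present in part: PAX8 had 1716 to 2993 counts per library, WT1 198 to 272 and EPCAM 8017 to 11222, whereas SOX17 had 0 in all 6. Markers of other cell types were mixed. Of 12 fibroblast markers 7 had at most 10 counts in every treated library (4 had 0 in all, among them COL1A2, COL3A1 and LUM), whereas THY1 had 1937 to 2276 counts, FBLN1 646 to 1555 and FAP 175 to 253. Of 12 leukocyte markers 8 had at most 10 (PTPRC 0 to 5, CD3D 0), whereas CD68 had 1376 to 1769. Of 11 endothelial and mesothelial markers 6 had at most 10 (CLDN5 and EMCN 0), whereas CDH5 had 112 to 164 counts and the mesothelial markers UPK3B and MSLN, the latter also on the ovarian list, 345 to 930 and 1358 to 4090. The summed counts overlapped between control-vector and knockdown libraries: 3001 to 4218 against 3095 to 3583 for fibroblast, 1420 to 1836 against 1558 to 1694 for leukocyte, and 2008 to 5345 against 2522 to 3618 for endothelial and mesothelial markers. Of the 15 tested members of these lists CALB2 alone was called by edgeR (log2 fold change 0.54, adjusted p = 0.00182). The GC-corrected fit called 3 higher and 1 lower. The part of these markers in the results was not tested.

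**Figure D1:**
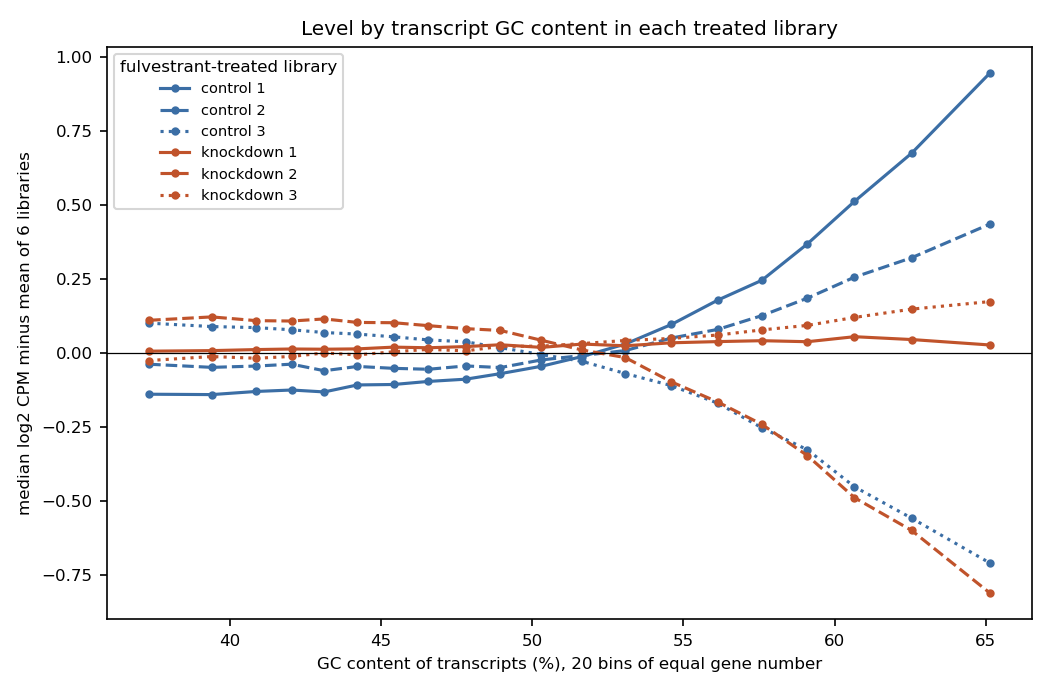
Median log2 CPM (counts relative to the TMM-scaled library total) of genes in each fulvestrant-treated library minus the mean of the 6 libraries (vertical axis), in 20 bins of transcript GC content in percent (horizontal axis); blue lines are control vector, orange lines knockdown. Lines lie close together at low GC content and spread from 0.95 to −0.81 in the bin at 65.1%, with control-vector library 3 and knockdown library 2 at the bottom.

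With fulvestrant, 1103 of the 15715 tested genes (7.02%) differed between knockdown and control vector at an edgeR adjusted p under 0.05. Of these, 672 were higher in knockdown cells (4.28% of tested genes) and 431 lower (2.74%). The changes were mostly small: the median absolute log2 fold change of called genes was 0.42, with quartiles of 0.32 and 0.60, and 67 genes rose and 39 fell by 1 or more log2 units. The knockdown and control libraries did not overlap for any of the 1103 called genes. A lack of overlap given below for a called gene therefore adds no support to its call. Among all tested genes, 15.3% lay entirely higher and 8.29% entirely lower in the knockdown libraries. The balance of directions moved with GC content: 60.9% of called genes were higher in the plain fit, and 45.8% of 3184 called genes (20.3% of those tested) after the GC correction (9.28% of tested genes higher, 11% lower). Of the 1103 genes, 1051 kept their call and direction after that correction and 0 were called in the opposite direction. Without control-vector library 3 and knockdown library 2, 1471 genes were called (9.26% of 15885 tested), 898 higher (5.65%) and 573 lower (3.61%). That fit leaves the groups apart in GC-rich transcripts, as given above. Fitted on the 6 treated libraries alone, 229 genes were called, 111 higher and 118 lower. Replicate blocks gave 620 calls when shared across groups and 525 within each treatment. With 1 treated library left out the count was 456 to 2270, and above 1103 only without control-vector library 3. A core of 198 genes, 101 higher and 97 lower, was called in the same comparison under all 22 alternative settings tried, and genes named below as core belong to it. Every called gene outside the core lost its call under 1 or more of those settings. Brackets after a level give the log2 fold change (knockdown over control vector), its standard error (SE) and the edgeR adjusted p.

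DNA replication genes fell as a group. Of 32 genes of replication licensing and the fork, 20 fell and 0 rose, against a background of 2.74% of tested genes called lower, and the median log2 fold change was −0.47 against 0.00 over all tested genes. Of 28 genes of the DNA polymerases, the clamp and the ligase, 16 fell and 0 rose (median −0.42). The called members fell by modest amounts, between −0.74 and −0.28 in the first list and between −0.57 and −0.24 in the second. After the GC correction 28 of 32 and 25 of 28 were called lower, and without the pair of libraries that stood apart 20 and 18. With 1 treated library left out the first count stayed between 15 and 22, and the second was 9 without control-vector library 2 and 7, 9 and 8 without knockdown libraries 1, 2 and 3. Fitted on the 6 treated libraries alone, the counts were 13 and 7.

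The promoters of 4 core members are printed because each holds an E2F word, the sequence class through which these genes are classically driven. They are RefSeq promoters of build GRCh38.p14, 250 bases before to 50 bases after the annotated start, written 5′ to 3′ on the gene's strand with the E2F words in capitals. MCM3, a helicase subunit, lies at chr6:52284693-52284992 on the minus strand; CDC6, which loads the helicase, at chr17:40287629-40287928 on the plus strand. PCNA, the sliding clamp, lies at chr20:5126573-5126872 on the minus strand, and POLA2, a subunit of the polymerase that primes DNA synthesis, at chr11:65261712-65262011 on the plus strand. These genes were chosen after their values and promoters were seen.
MCM3: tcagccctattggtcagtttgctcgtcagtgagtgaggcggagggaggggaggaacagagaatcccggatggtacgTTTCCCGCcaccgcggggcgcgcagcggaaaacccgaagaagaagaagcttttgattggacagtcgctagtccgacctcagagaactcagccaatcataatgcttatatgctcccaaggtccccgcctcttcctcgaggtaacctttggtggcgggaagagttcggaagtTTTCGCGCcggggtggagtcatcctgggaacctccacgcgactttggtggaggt
CDC6: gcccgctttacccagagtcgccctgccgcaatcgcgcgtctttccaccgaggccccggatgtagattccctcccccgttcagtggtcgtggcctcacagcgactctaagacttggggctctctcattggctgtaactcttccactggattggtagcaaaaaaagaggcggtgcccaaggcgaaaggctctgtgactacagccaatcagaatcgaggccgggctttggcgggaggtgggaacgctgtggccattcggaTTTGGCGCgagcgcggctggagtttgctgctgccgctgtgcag
PCNA: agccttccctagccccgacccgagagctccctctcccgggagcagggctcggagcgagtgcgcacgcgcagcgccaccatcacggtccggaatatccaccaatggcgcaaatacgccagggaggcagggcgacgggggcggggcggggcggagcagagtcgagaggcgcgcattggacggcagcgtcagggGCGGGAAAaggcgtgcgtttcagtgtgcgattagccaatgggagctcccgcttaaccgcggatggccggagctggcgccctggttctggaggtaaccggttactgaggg
POLA2: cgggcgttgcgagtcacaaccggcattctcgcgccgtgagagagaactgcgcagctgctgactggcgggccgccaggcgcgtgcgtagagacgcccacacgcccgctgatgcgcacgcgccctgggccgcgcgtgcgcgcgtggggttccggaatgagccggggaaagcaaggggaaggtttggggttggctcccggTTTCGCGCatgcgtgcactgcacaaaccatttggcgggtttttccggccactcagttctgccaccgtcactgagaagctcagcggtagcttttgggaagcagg

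Words for E2F were TTTCCCGC, TTTGGCGC, TTTCGCGC and TTTGCCGC on either strand, and the CHR word was TTTGAA on either strand. Of the 15715 tested genes, 11423 were matched to a promoter by symbol, and 5.21% of those promoters held an E2F word. The share was 14.3% among genes called lower (46 of 322), 3.77% among genes called higher (20 of 530) and 5.004% among genes not called. Among genes called lower outside the replication, repair, nucleotide, G1 and mitosis lists it was 8.43% (21 of 249). Of the matched promoters of the replication licensing list 48.1% held one (13 of 27), of the polymerase and clamp list 34.8% (8 of 23) and of the mitosis list 4.88%. The CHR word was in 65.9% of the mitosis promoters (27 of 41) and in 9.62% of all matched promoters. It was in 13.7% of the matched promoters of genes called lower (44 of 322) and 12.1% of those of genes called higher (64 of 530). In all 27305 promoters of the table the shares were 3.33% for E2F words and 15.4% for the CHR word. A word in a promoter is a description of its letters and not a bound site.

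MCM3 stood at 134, 139 and 143 CPM in the control-vector libraries and at 98.9, 97.7 and 97.4 CPM in the knockdown libraries. The groups lay apart with little spread, with a log2 ratio of −0.50 (SE 0.06, adjusted p = 0.000453). CDC6 stood at 76.3, 75.7 and 80.2 CPM against 54.9, 52.4 and 53.3 (−0.53, SE 0.06, adjusted p = 0.000383). All 3 knockdown libraries were again below all 3 controls. The clamp gene PCNA read 206, 206 and 178 CPM against 142, 125 and 137 (−0.54, adjusted p = 0.00102), and POLA2 50.7, 52.1 and 52.8 CPM against 35.0, 37.1 and 37.98 (−0.50, adjusted p = 0.000213). Among the largest falls of the licensing list, MCM7, another helicase subunit, changed by −0.59 (adjusted p = 0.00297) and GINS4, a subunit of the helicase activator, by −0.65 (adjusted p = 0.000213, core). MCM2 changed by −0.74 (adjusted p = 0.0414), a call that was lost without control-vector library 1 or 2, or without any of the knockdown libraries. In the GC-corrected fit MCM2 was at −0.61 (adjusted p = 3.14e-06). The genes with no call included CDT1 (−1.74) and RECQL4 (−1.18), with log2 fold changes that were large and spread between libraries, and ORC4 (0.10).

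In untreated cells the same lists showed no calls. The replication licensing list had 0 members called either way in the untreated comparison, where 1.58% of tested genes were called, and a median of −0.06, and the polymerase list 0 and −0.08. The test of the difference between the treated and untreated effects called 0 members of either list in the plain fit, with medians of −0.40 and −0.37. After the GC correction it called 21 of 32 and 17 of 28 lower, where 2.94% of all tested genes were called lower. The treated and untreated effects on these members thus differed past the threshold in the GC-corrected fit and not in the plain one.

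The replication lists stood at like levels in the libraries that stood apart and in the others of their group. Relative to the mean of the treated control libraries, the median of the licensing list was −0.04, −0.02 and 0.05 in control-vector libraries 1 to 3 and −0.48, −0.45 and −0.47 in knockdown libraries 1 to 3. After the GC correction the knockdown values were −0.51, −0.56 and −0.51. Ribosomal protein genes, which served as a comparison, lay between −0.05 and 0.06 in all 6 libraries.

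**Figure D2:**
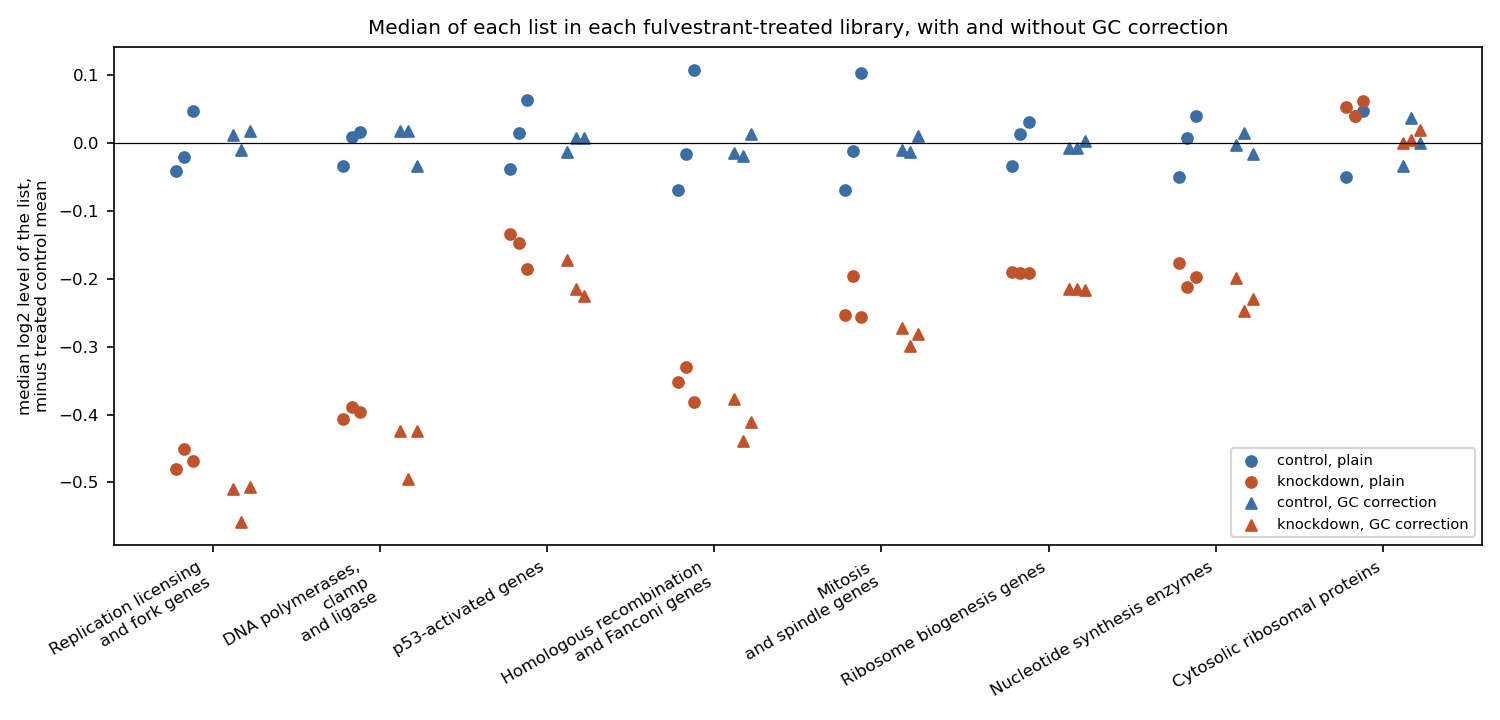
Median log2 level of the members of each list in each fulvestrant-treated library, minus the treated control mean (vertical axis), for lists along the horizontal axis; circles are plain values, triangles GC-corrected ones, blue control vector and orange knockdown. The licensing list is at −0.48 to −0.45 in the 3 knockdown libraries without correction and at −0.56 to −0.51 with it, and the ribosomal protein list stays between −0.05 and 0.06.

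Other proliferation and repair lists had members that fell as well, against 2.74% of all tested genes called lower and 11% after the GC correction. Of 38 genes of homologous recombination and the Fanconi pathway, which repair double-strand breaks and crosslinks, 19 fell and 0 rose (median −0.38), and 28 fell after the GC correction. RAD54L, a recombination motor, changed by −0.56 (adjusted p = 0.000888) and is core, as are EXO1, XRCC2, BRIP1 and RMI2. BRCA1 and BRCA2 fell by 0.44 and 0.51 on the log2 scale, outside the naming rule. The list had 12 calls without control-vector library 2 and 7 without knockdown library 1 or 3, and 5 on the 6 treated libraries alone. Of 49 genes of mitosis and the spindle all 49 had a log2 fold change below 0, 14 were called lower and 0 higher (median −0.24), and 42 were called lower after the GC correction. The mitosis count was 2 without control-vector library 2, 1, 4 and 3 without knockdown libraries 1, 2 and 3, and 1 when only the 6 treated libraries were fitted. It was 7 without untreated control-vector library 2 or untreated knockdown library 2, and 9 without untreated knockdown library 1 or 3. The kinase gene AURKB changed by −0.48 (adjusted p = 0.0364), a call lost without control-vector library 1 or 2 or without knockdown library 1 or 2. In the GC-corrected fit AURKB was at −0.42 (adjusted p = 0.000167).

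The lists that follow stand against the same shares of all tested genes, 2.74% called lower and 4.28% higher in the plain fit. Among nucleotide synthesis enzymes, 5 of 30 fell and 0 rose (median −0.21), and 21 fell after the GC correction. That count was 9 without control-vector library 3 and 8 without untreated control-vector library 1. The thymidylate synthase gene TYMS fell from 63.1, 67.4 and 67.0 CPM to 44.6, 43.8 and 46.2 CPM, with no overlap (−0.55, SE 0.06, adjusted p = 0.000295). RRM2, a subunit of ribonucleotide reductase, fell by 0.49 and CTPS1 by 0.43 on the log2 scale, the latter lost without knockdown library 1 or 3. TYMS and RRM2 are core. Of 26 tested genes of E2F, retinoblastoma and the G1 cyclins 13 fell and 0 rose (median −0.35), among them E2F8 (−0.54), a repressor of the E2F family, and SKP2 (−0.67), a ubiquitin ligase subunit that targets p27, both core. That count was 5 without control-vector library 2, 6 without any of the knockdown libraries and 4 on the 6 treated libraries alone. CCND1, the gene of cyclin D1, was at −0.49 (adjusted p = 0.00588) in the plain fit and at −0.18 (adjusted p = 0.70) after the GC correction. Ribosome biogenesis genes had 9 of 44 called lower and 0 higher (median −0.20), with NOLC1 (−0.37) and NOP56 (−0.33) as core members, whereas 0 of 78 cytosolic ribosomal protein genes were called either way (3 higher and 2 lower without control-vector library 3). That ribosome biogenesis count was 4 without control-vector library 2 or knockdown library 1 or 3, 16 without control-vector library 3 and 27 after the GC correction. Of 23 mismatch and base excision repair genes 3 fell (PARP1 by 0.27 on the log2 scale), 1 without control-vector library 2 or knockdown library 1, and 0 without knockdown library 3. The GC-corrected count was 9, in a fit that called 11% of all tested genes lower.

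**Figure D3:**
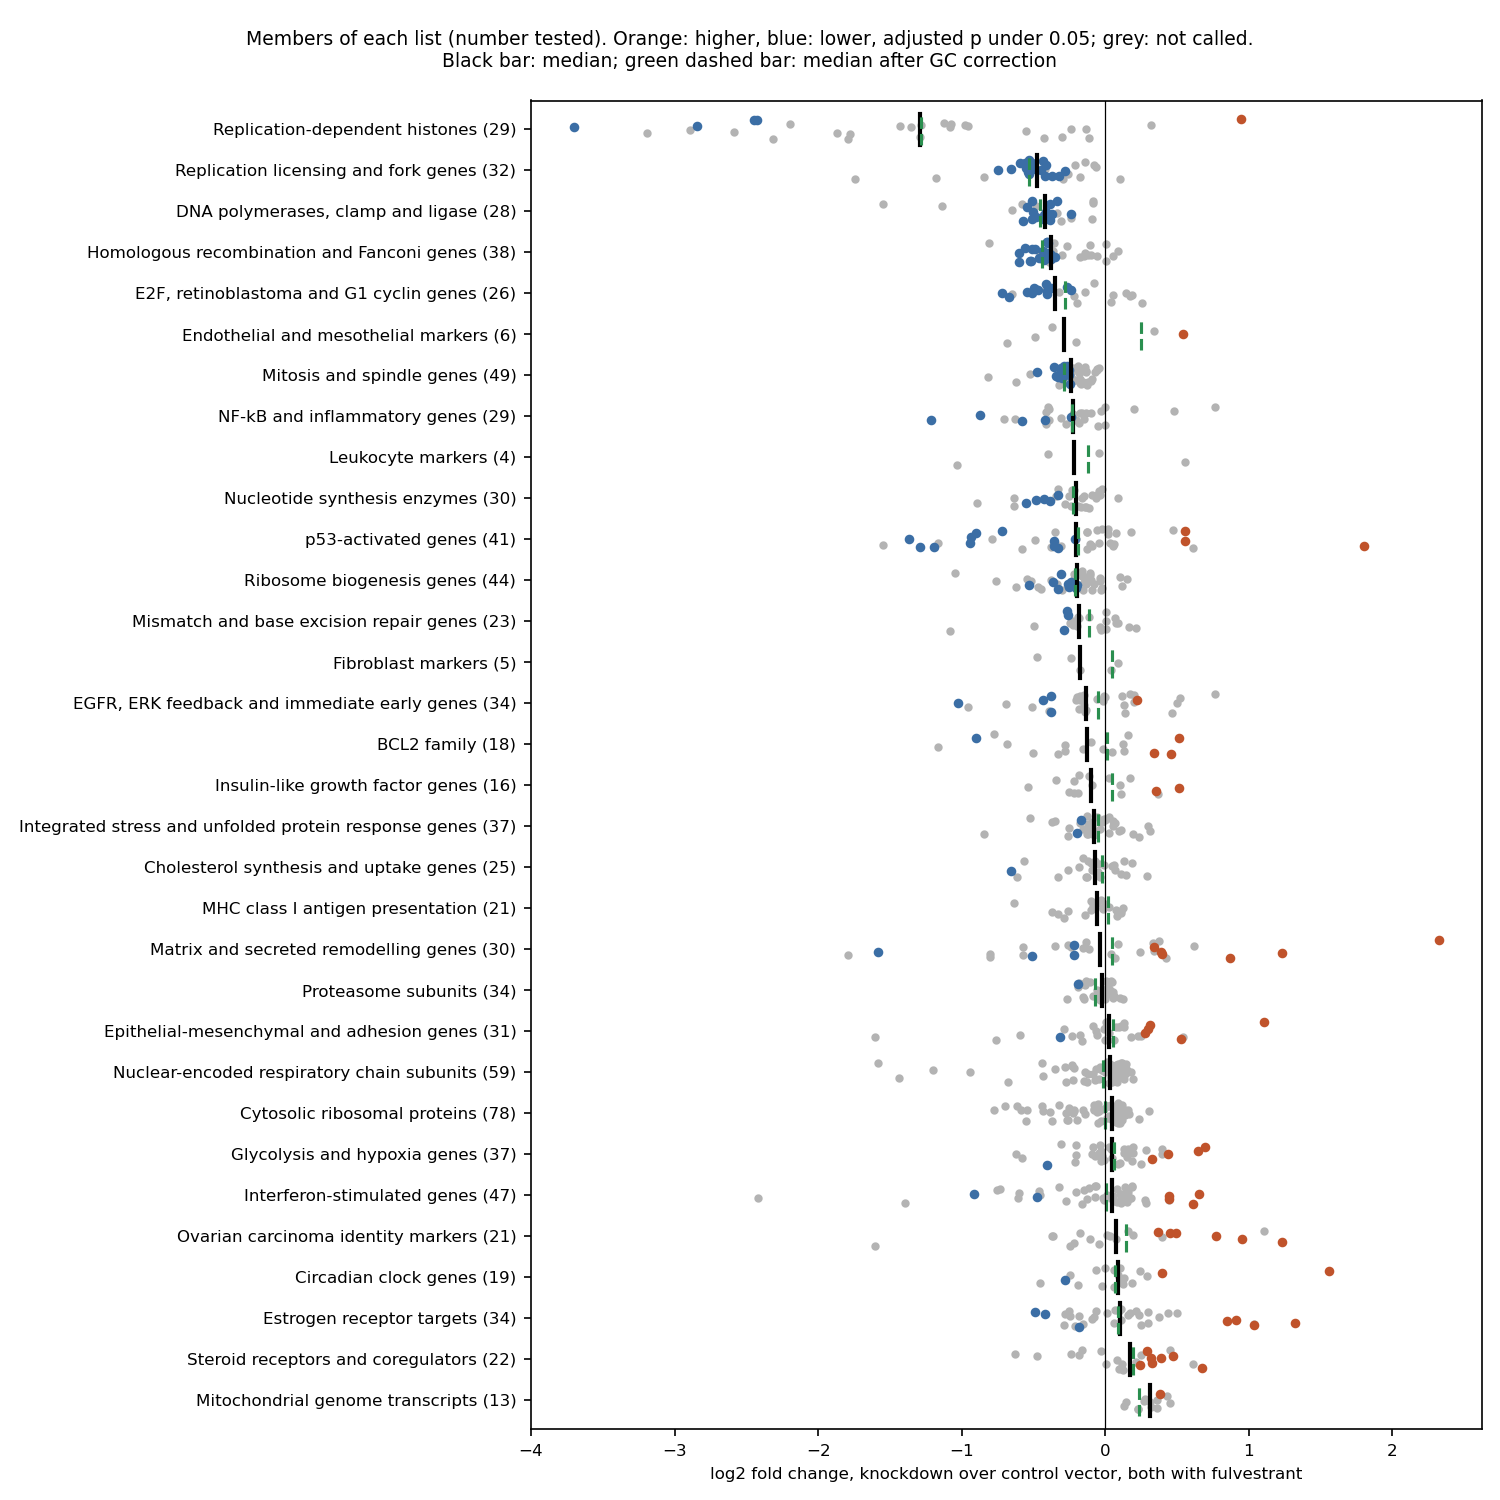
log2 fold change of each tested list member between knockdown and control vector with fulvestrant (horizontal axis), with lists ordered by their median (vertical axis) and the number tested in brackets; orange points were called higher, blue called lower and grey not called. The black bar is the median and the green dashed bar the median after GC correction: the replication licensing list lies at −0.47 and −0.53, the ribosomal protein list at 0.05 and 0.00.

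Genes that p53 activates were lower in part. Of 41 tested members, 11 fell and 3 rose, with a median log2 fold change of −0.20, and 18 fell and 3 rose after the GC correction. Over all tested genes 2.74% fell and 4.28% rose, and 11% and 9.28% after that correction. ZMAT3 (ENST00000311417), an RNA-binding zinc finger protein and direct p53 target, stood at 46.2, 49.7 and 51.2 CPM in the control-vector libraries and at 20.6, 19.7 and 19.7 CPM in the knockdown libraries. The 2 groups lay far apart (−1.29, SE 0.07, adjusted p = 9.27e-06). RPS27L, a ribosomal protein paralogue induced by p53, read 24.0, 25.3 and 32.2 CPM against 9.78, 11.2 and 10.6 CPM (−1.37, SE 0.11, adjusted p = 0.00012). DDB2, a sensor of UV damage, read 26.4, 27.8 and 23.5 CPM against 13.9, 12.0 and 14.5 CPM (−0.95, adjusted p = 0.000261). All of the knockdown libraries lay below all of the controls for these genes, and each is core.

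CDKN1A, which encodes the cell cycle inhibitor p21, fell from 11.7, 12.6 and 10.0 CPM to 7.26, 6.20 and 7.37 CPM (−0.72, SE 0.13, adjusted p = 0.00666). The groups did not overlap, although the controls spread more than the knockdown libraries. MDM2, the ubiquitin ligase that degrades p53, had 66.1, 67.5 and 74.0 CPM against 60.2, 66.7 and 62.8 CPM, with overlapping groups and no call (−0.13, adjusted p = 0.32). It was called after the GC correction, at −0.20 (adjusted p = 0.00101). AEN, a nuclease of apoptosis, changed by −0.93 and ABCA12, a lipid transporter, by −1.19. The latter call was lost without knockdown library 1 (adjusted p = 0.054). BAX, a pro-apoptotic BCL2 family member, read 75.1, 64.3 and 42.3 CPM against 34.1, 24.4 and 38.8 CPM. Its call (−0.90, adjusted p = 0.0344) was lost without control-vector library 1 or 2, or knockdown library 1 or 2. In the GC-corrected fit BAX was at −0.68 (adjusted p = 7.88e-07). Against the list's direction, PERP, a desmosomal effector of apoptosis, was higher by 0.55 (adjusted p = 0.000858) and is core. TP53INP1 was higher by 0.56 and CMBL, a hydrolase, by 1.80. CMBL had only 7, 4 and 8 counts in the controls against 19, 18 and 30 in the knockdown libraries, so its counting error is large. The count of falls was 6 without control-vector library 2 and 5 and 7 without knockdown libraries 1 and 3, and 1 riser was left without control-vector library 1 or 2 or knockdown library 3. In untreated cells 4 of the 41 fell and 0 rose (median −0.09), where 0.566% of all tested genes fell and 1.02% rose. The test of the difference called 0 members in the plain fit. After the GC correction it called 2 higher and 1 lower, where 1.21% and 2.94% of all tested genes were.

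**Figure D4:**
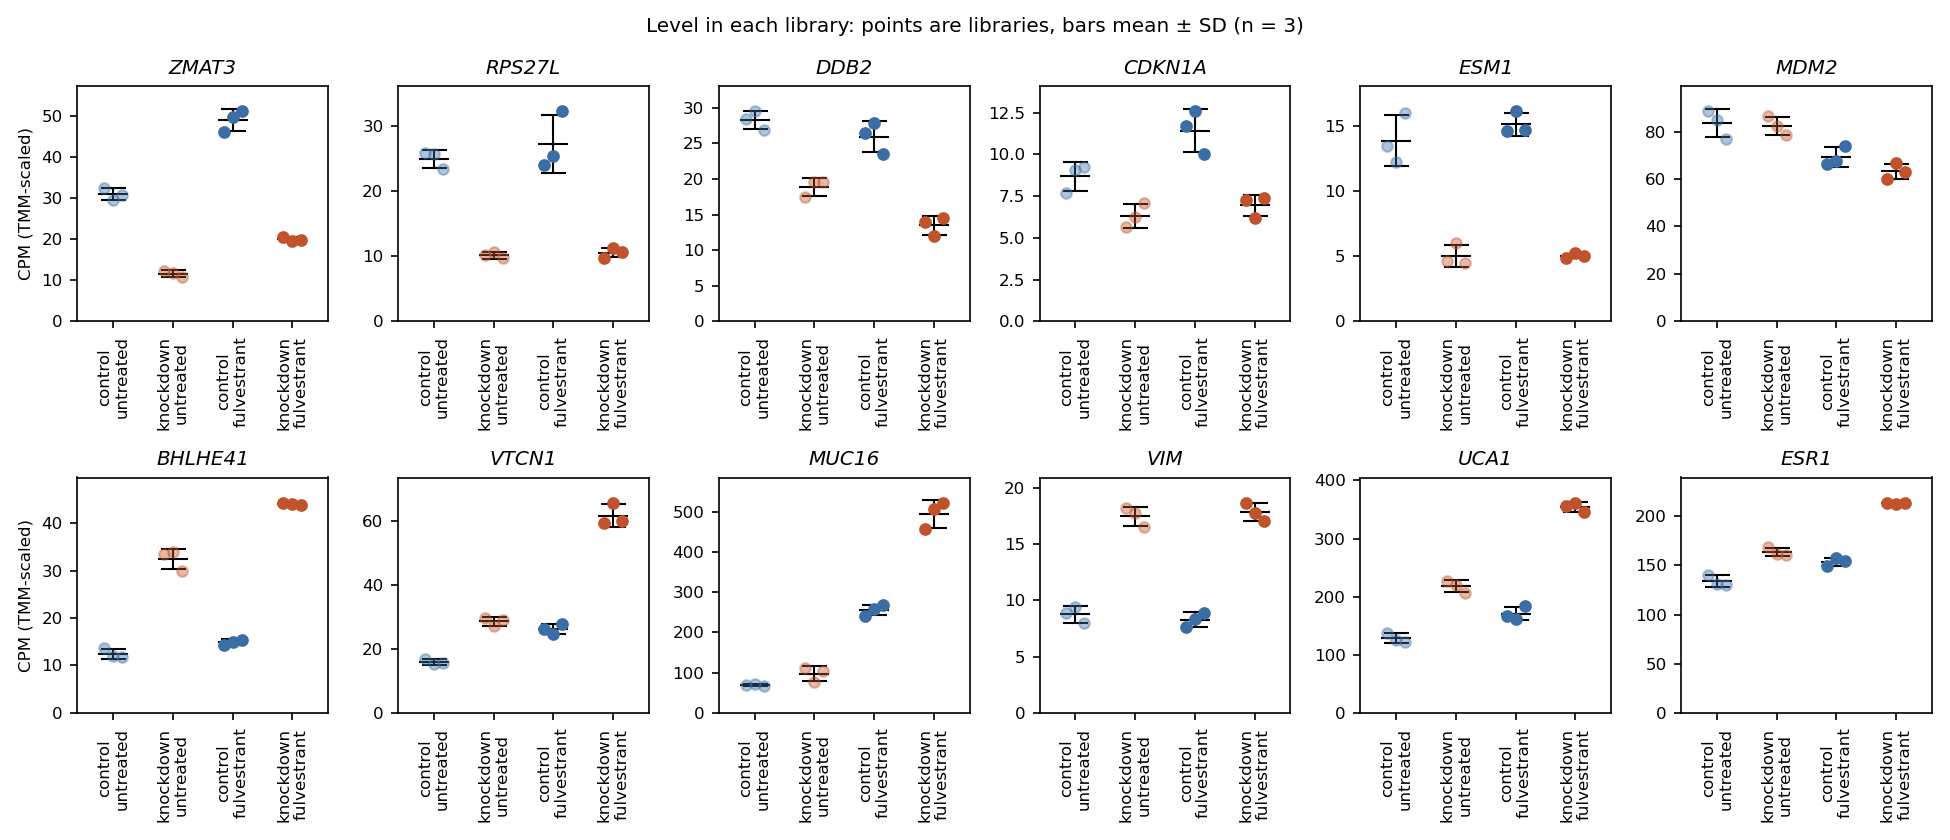
CPM of 12 genes (vertical axes, each from 0) in the 4 groups of 3 libraries (horizontal axes); points are libraries, blue control vector and orange knockdown, pale untreated and full fulvestrant-treated, and black bars give the mean ± SD. ZMAT3, RPS27L, DDB2, CDKN1A and ESM1 are lower in all 3 treated knockdown libraries, MDM2 overlaps, and the 6 genes of the lower row are higher in all 3.

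The gene of the drug target itself was higher in knockdown cells. ESR1 (ENST00000206249), which encodes estrogen receptor alpha, stood at 149, 157 and 154 CPM in the control-vector libraries and at 214, 212 and 214 CPM in the knockdown libraries. The replicates of each group were close together and the groups well apart (0.47, SE 0.05, adjusted p = 0.000244), and the call held in all 22 alternatives. The untreated log2 fold change was 0.29 and the difference between treated and untreated, 0.18, was not called (adjusted p = 0.46; 0.15 and adjusted p = 0.0461 after the GC correction). Of 22 tested steroid receptors and coregulators 7 rose and 0 fell (median 0.17), against a background of 4.28% called higher. The coactivators NCOA1, NCOA2 and NCOA3 had log2 fold changes of 0.33, 0.29 and 0.32. The list's count was 2 without control-vector library 1 or 2, or without any of the knockdown libraries.

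Among 34 tested estrogen receptor targets 4 rose and 3 fell, with a median log2 fold change of 0.10. The risers were AGR2, a disulfide isomerase (7.10, 7.17 and 8.75 CPM against 18.9, 19.3 and 19.4 CPM, log2 fold change 1.32, adjusted p = 0.000105), RERG (1.03), DHRS2 (0.91) and HSPB8 (0.85). AGR2, RERG and DHRS2 are core. The falls were CCND1, MYB (−0.42) and FKBP4 (−0.18), with 1 left without control-vector library 2 or any of the knockdown libraries. After the GC correction 9 rose and 4 fell, where 9.28% of all tested genes rose and 11% fell (4.28% and 2.74% in the plain fit). GREB1, an estrogen-induced coactivator, read 5.82, 6.03 and 5.82 CPM in treated control cells and 5.70, 5.28 and 5.92 CPM in treated knockdown cells, with overlapping groups (−0.07, adjusted p = 0.695). In untreated cells it had means of 41.2 and 66.2 CPM. The log2 fold changes of the 2 comparisons differed by −0.75 (adjusted p = 0.0478). That call was lost with upper-quartile factors, without a low-count filter and in most fits with 1 library left out. PGR, the progesterone receptor gene, had 0 to 3 counts in each treated library and was not tested.

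A minority of ovarian carcinoma identity markers rose in the treated knockdown cells, where 4.28% of all tested genes were called higher. Of 21 tested, 6 rose, 0 fell and 15 were not called, with log2 fold changes from −1.61 to 1.23 and a median of 0.07. MUC16, the mucin of the CA125 antigen, stood at 242, 257 and 267 CPM in the controls and at 457, 506 and 522 CPM in the knockdown libraries, with no overlap (0.95, SE 0.12, adjusted p = 0.00102). VTCN1, an immune checkpoint ligand known as B7-H4, read 26.3, 24.7 and 27.7 CPM against 59.2, 65.6 and 60.0 CPM (1.23, SE 0.07, adjusted p = 1.36e-05). The kallikrein proteases KLK7, KLK6 and KLK5 rose by 0.77, 0.50 and 0.45, and the cadherin CDH6 by 0.37. Of these, MUC16, VTCN1, KLK7 and KLK6 are core. The largest called rise among well expressed genes was BHLHE41, a circadian transcriptional repressor, from 14.2, 15.04 and 15.5 CPM to 44.3, 44.0 and 43.7 CPM (1.56, SE 0.08, adjusted p = 5.76e-06). UCA1, a long noncoding RNA, rose by 1.05, ID2, an inhibitor of basic helix-loop-helix factors, by 1.02, LIMCH1, a regulator of myosin, by 1.15 and C12orf36 by 1.37. DCLK1 (0.97), SYTL2 (0.93) and SNTB1 (0.93) also rose. BHLHE41 and these 7 genes are core. BHLHE41 belongs to a list of 19 tested circadian clock genes, of which 2 rose (the other was PER3, 0.39) and 1 fell (CRY1, −0.28). The risers numbered 1 without control-vector library 2 or knockdown library 1 or 2, and the CRY1 call was lost without any of the control-vector libraries or knockdown library 1 or 3.

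Matrix and adhesion genes moved in both directions. The shares over all tested genes were 4.28% called higher and 2.74% lower, and 9.28% and 11% after the GC correction. Among 31 epithelial-mesenchymal genes 5 rose and 1 fell, and among 30 matrix and secreted remodelling genes 6 rose and 4 fell. The intermediate filament gene VIM rose from 7.61, 8.35 and 8.92 CPM to 18.7, 17.8 and 17.1 CPM (1.11, SE 0.09, adjusted p = 0.000105), and CDH1, an epithelial cadherin, rose as well, by 0.28. FN1, the fibronectin gene, rose by 0.53 (adjusted p = 0.000282). The collagenase inhibitor TIMP3 rose by 0.87 (adjusted p = 0.000509). LOXL2 had a log2 fold change of 1.23, and MMP2, a gelatinase, had 8, 6 and 3 counts in the controls against 27, 27 and 33 counts in the knockdown libraries (2.32, adjusted p = 0.00638). ESM1, an endothelial proteoglycan, fell from 14.6, 16.2 and 14.7 CPM to 4.92, 5.24 and 5.02 CPM (−1.58, adjusted p = 0.000123). VIM, FN1, TIMP3 and ESM1 are core. The count of epithelial-mesenchymal risers was 2 without control-vector library 1 or 2 or any of the knockdown libraries, 10 without control-vector library 3, 8 without the pair that stood apart and 11 after the GC correction, when 4 fell. Matrix genes called lower numbered 2 and 1 without control-vector libraries 1 and 2, and 1 without knockdown library 1 or 3.

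Inflammatory and growth factor signalling lists had a minority of members called. Set beside them, 2.74% of all tested genes were called lower and 4.28% higher, and 11% and 9.28% after the GC correction. Of 29 tested NF-kB and inflammatory genes 5 fell and 0 rose (median −0.22). CD83, an activation marker, changed by −1.21 (adjusted p = 0.000348), the cytokine IL32 by −0.88 and the chemokine CXCL1 by −0.58. These 3 are core, and the count of the list was 3 without control-vector library 2 or any of the knockdown libraries, 9 without control-vector library 3 and 11 after the GC correction. Of 34 genes of EGFR, ERK feedback and the immediate early response 4 fell and 1 rose: FOSL1, an AP-1 subunit, stood at 55.9, 51.9 and 34.4 CPM against 24.0, 18.8 and 27.1 CPM (−1.03, SE 0.19, adjusted p = 0.0105), while HBEGF and ETV5, both core, fell by 0.44 and 0.38 on the log2 scale. That count of falls was 7 without control-vector library 3, and after the GC correction 7 fell and 4 rose. Of 16 insulin-like growth factor genes 2 rose, IGF1R (0.36) and IGFBP5 (0.51), and 0 fell (median −0.10). That count was 1 without control-vector library 1 or 2 or any of the knockdown libraries and 4 without control-vector library 3, and after the GC correction 1 rose and 2 fell. FOSL1 varied more between its control libraries than most genes named, and control-vector library 3 was its lowest control. FGF5, a fibroblast growth factor, fell by 0.98 and KISS1, a metastasis suppressor peptide, by 1.74 on the log2 scale. NEGR1, a neuronal adhesion gene, fell by 1.00 and RNF168, a ubiquitin ligase of the DNA damage response, by 0.99. FGF5, NEGR1 and RNF168 are core.

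Metabolic, stress and immune lists showed few calls, and several of their counts were near the shares over all tested genes. Those shares were 4.28% called higher and 2.74% lower, and 9.28% and 11% after the GC correction. Of 37 glycolysis and hypoxia genes 4 rose and 1 fell, with TXNIP, an inhibitor of glucose uptake, at 119, 128 and 144 CPM against 190, 222 and 200 CPM (0.65, adjusted p = 0.00209) and its relative ARRDC4 at 0.70, a call lost without control-vector library 2 or knockdown library 2. The glycolysis risers numbered 8 without control-vector library 3 and 11 after the GC correction. Of 25 cholesterol genes 1 fell, the sterol sensor INSIG1 (−0.66, adjusted p = 0.000282, core), and after the GC correction 4 fell and 2 rose. Of 47 interferon-stimulated genes 4 rose and 2 fell (6 rose and 7 fell after the GC correction), with the guanylate-binding proteins GBP2 (0.65) and GBP1 (0.61) higher and IFITM1 (−0.91) lower. The IFITM1 call was lost without control-vector library 1 or 2, or knockdown library 1 or 2, and each of these left 2 risers. In 21 genes of MHC class I presentation and 59 nuclear-encoded respiratory chain subunits 0 were called by edgeR in either direction (3 and 3 after the GC correction). Of 37 integrated stress and unfolded protein response genes 2 fell (HSPA5 by 0.17 and PDIA4 by 0.20 on the log2 scale), and 0 without control-vector library 2 or any of the knockdown libraries. In the GC-corrected fit 8 fell and 1 rose. Of 34 proteasome subunits 1 fell, PSMD2 by 0.19 on the log2 scale, and 0 without control-vector library 2 or any of the knockdown libraries (10 after the GC correction). Of 18 tested BCL2 family genes 3 rose and 1 fell (median −0.13, with 11 below 0), and 3 rose and 2 fell after the GC correction. The risers were the pro-apoptotic BMF (0.51), HRK (0.45) and BCL2L11 (0.34). The fall was BAX (−0.90), also pro-apoptotic, with the limits given above. The HRK call was lost without control-vector library 1 or 2 or any of the knockdown libraries, and the BMF call without knockdown library 1. The list had 1 riser without control-vector library 2 or any of the knockdown libraries. The share of counts on the mitochondrial genome was 0.182%, 0.186% and 0.221% in the control-vector libraries and 0.250%, 0.262% and 0.213% in the knockdown libraries, which overlap. All 13 of its transcripts had a log2 fold change above 0 and 1, MT-CO1, was called (0.38, adjusted p = 0.0338), against 7 without control-vector library 3 and 0 without any other treated library. The part of that difference in other results was not tested.

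Some of the largest fold changes were in transcripts without poly(A) tails, which an mRNA kit is not made to capture, and in genes with few counts. For comparison, 2.74% of all tested genes were called lower and 4.28% higher, and 11% and 9.28% after the GC correction. Of 29 tested replication-dependent histone genes 4 fell and 1 rose (median −1.29). The count of falls was 1, 0 and 11 without control-vector libraries 1, 2 and 3 and 1, 0 and 0 without knockdown libraries 1, 2 and 3. It was 7 without the pair that stood apart or without untreated knockdown library 3. After the GC correction 7 histone genes fell and 2 rose. HIST1H1E had 38, 33 and 9 counts in the controls against 4, 2 and 5. HIST1H2AC moved the other way, with 70, 62 and 46 counts against 111, 129 and 109. Histones made up between 0.0019% and 0.0042% of counts in the treated libraries. Small nucleolar and Cajal body RNAs, a class chosen after values were seen, had 7 of 13 tested members lower and 0 higher (median −2.45). SNORD3A, the U3 RNA, had 194, 198 and 191 counts in the controls and 31, 18 and 24 in the knockdown libraries. STAB2, an endocytic receptor gene, had 18, 17 and 18 counts against 0, 0 and 0, at least 18.1-fold lower taking a floor of 3 counts over the knockdown group (adjusted p = 0.00478). In untreated cells STAB2 had 6, 8 and 3 counts against 0, 0 and 0. PLEKHS1 had 0, 4 and 1 counts against 23, 29 and 22 (adjusted p = 0.00284). The counting error of such low values is large.

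The knockdown changes in treated cells were set beside those in untreated cells, which share no library with them. In untreated cells 249 genes were called (1.58% of tested genes), 160 higher (1.02%) and 89 lower (0.566%), and 190 were called in both comparisons, 189 of them in the same direction. These 190 make up 17.2% of the treated calls and 76.3% of the untreated calls. Of the treated calls, 89.0% had the same sign in untreated cells, where 67.1% of all tested genes did. Across genes, which are not independent replicates, both sets of log2 fold changes had a Pearson correlation of 0.40 and a Spearman correlation of 0.45. ZMAT3, RPS27L, ESM1, FGF5, NEGR1 and RNF168 had similar values in both, for example −1.29 and −1.41 for ZMAT3 and −0.98 and −0.97 for FGF5. The test of the difference called 4 genes (0.0255% of tested genes; 2 higher and 2 lower, 0.0127% each) in the plain fit of edgeR, 1171 at an unadjusted p under 0.05, and 31 with DESeq2. After the GC correction it called 652 genes (4.15%), 190 higher (1.21%) and 462 lower (2.94%). Without the pair of libraries that stood apart it called 20 genes.

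**Figure D5:**
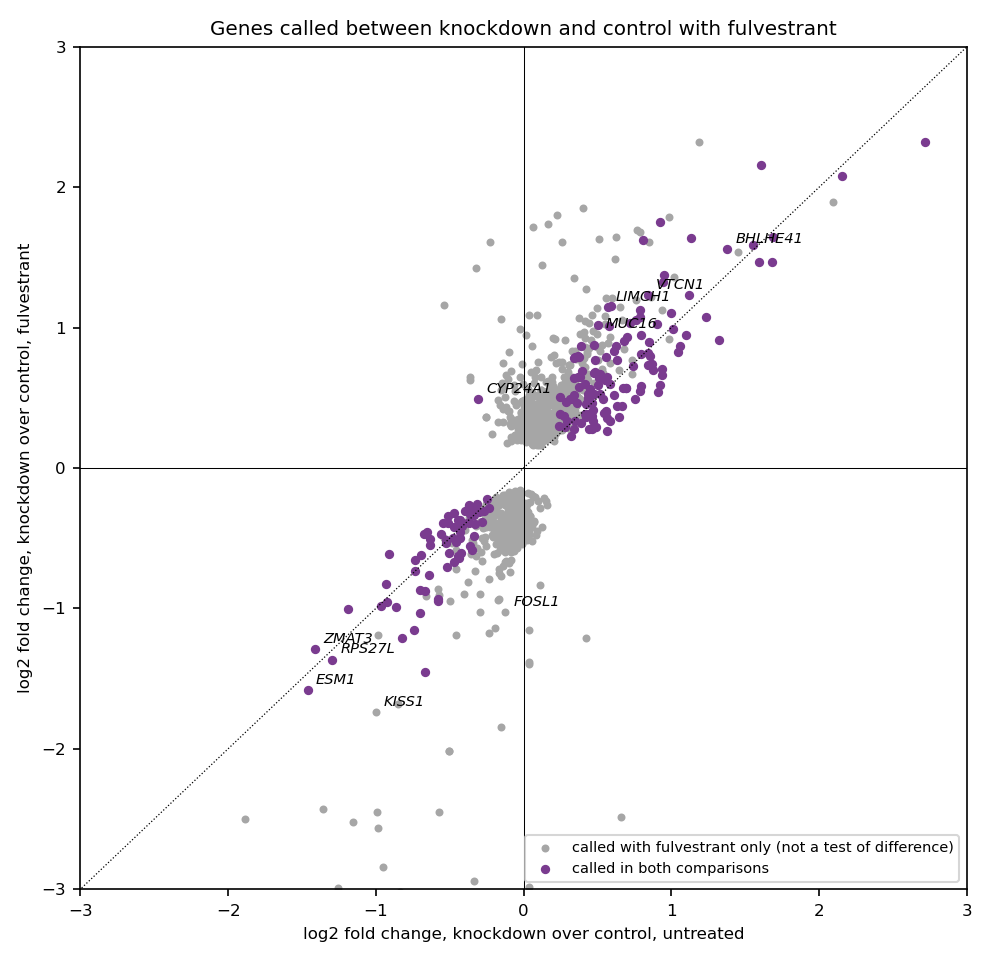
Knockdown over control vector as a log2 fold change, untreated (horizontal axis) and with fulvestrant (vertical axis) for the 1103 genes called with fulvestrant; purple points were also called untreated and the dotted line marks equal values. Labelled genes such as ZMAT3 and BHLHE41 lie near that line, and CYP24A1 has opposite signs; 6 genes lie outside the axes.

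Calls of abundant genes were small in size. FTH1, the ferritin heavy chain gene, read 8792, 8617 and 8782 CPM in the controls and 10772, 11213 and 10846 CPM in the knockdown libraries (0.33, adjusted p = 0.00498). FTH1 shares sequence with many pseudogenes, so its count is less certain. GPRC5A, an orphan receptor gene, and ALDH1A3, an aldehyde dehydrogenase gene, had log2 fold changes of 0.18 and 0.19, calls lost without control-vector library 1 or 2, or without any of the knockdown libraries. IGFBP5 and AHNAK rose by 0.51 each. After the GC correction their log2 fold changes were larger, 0.79 and 0.69, but neither was called (adjusted p = 0.068 and 0.17). NCL, the nucleolin gene, had a log2 fold change of −0.25, lost without control-vector library 2 or knockdown library 1 or 3. PODXL, a sialomucin gene, had one of −0.21 (−0.10 and adjusted p = 0.73 after the GC correction).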

How the data were processed

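PEO1 RNA-seq libraries were made with a stranded mRNA kit from 500 ng of RNA with 9 PCR cycles, per the labels' protocols. The authors deposited estimated counts per gene (RSEM expected counts), which were whole numbers and were used as such after rounding. RSEM 1.3.3, Bowtie2, cutadapt and MultiQC, and the builds GRCh37 and hg19, are named in the submitters' processing notes. The annotation release and the use of strand in counting are not stated there. RSEM splits reads shared between near-identical copies, and without a stated strand setting antisense partners cannot be told apart. A further 6 per-sample columns matched no sample and were not used.

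All 12 libraries entered a single edgeR 4.0.16 model in R 4.3.3 (1 mean per group, TMM factors, filterByExpr, robust quasi-likelihood test). Adjusted p-values are Benjamini-Hochberg over 15715 genes, with a threshold of 0.05. The SE is the absolute log2 fold change over the square root of F. GC correction used a loess curve (span 0.5) per library on transcript GC content from GENCODE v29 transcripts, available for 97.8% of tested genes, as an offset. DESeq2 1.42.0 served as an alternative. The fits were tested on simulated data. Total counts of 21581887 to 25386239 per treated library set the counting precision.

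The comparison, the 32 gene lists and the rule for named genes were chosen with earlier results of these data known. The rule names ESR1, CDKN1A and MDM2, the 12 largest called changes each way (mean log2 CPM 3 or more, groups not overlapping), the 6 most abundant called genes each way, up to 3 called members per list (mean log2 CPM 1 or more), and up to 6 genes each way of the difference. Some genes that the rule names are not reported here. Other genes named were chosen after their values were seen. Alternatives were other scalings, DESeq2, no filter, the GC correction, replicate blocks, fewer libraries and single left-out libraries. Leaving out both libraries that stood apart was chosen after seeing the data. Promoters come from RefSeq.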

Additional observations from a re-analysis of the deposited data

Results flagged for a closer look

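The knockdown effect differed between treated and untreated cells for 4 genes in the interaction test of edgeR, among 15715 tested. CYP24A1, which inactivates vitamin D, had a log2 fold change of 0.49 with fulvestrant and −0.31 untreated, a difference of 0.80 (adjusted p = 0.0277). The cadherin gene CDH6 had 0.37 and −0.25, a difference of 0.62 (adjusted p = 0.0478). The adaptor gene SH3KBP1 had −0.06 and 0.54, a difference of −0.60 (adjusted p = 0.0265). GREB1 had −0.07 and 0.68, a difference of −0.75 (adjusted p = 0.0478). In all 4 the treated groups and the untreated groups share no library. Upper-quartile scaling, the fit without a low-count filter and both replicate blocks without GC correction each called 0 genes. With 1 library left out, 7 genes were called without treated control-vector library 3. The count was 1 without untreated knockdown library 3 and 0 without any other library.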

How the results depend on the processing

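Of tested genes with a mean log2 CPM below 0, 2.52% were called, against 9.79% above 6; the part of depth in this was not tested. Where a value changed, the cause was not tested. With fulvestrant, 1103 genes (672 higher, 431 lower) became 3184 (1458 and 1726) after the GC correction and 229 (111 and 118) when only the 6 treated libraries were fitted; upper-quartile factors gave 276 lower and no low-count filter 387 higher. Leaving out 1 library at a time gave 456 (without control-vector library 2) to 2270 (without control-vector library 3), with 244 to 1453 higher and 180 to 817 lower. All 6 treated libraries left out in turn moved the count by over 1.5 times: it was 673, 456 and 2270 without control-vector libraries 1, 2 and 3, and 466, 538 and 552 without knockdown libraries 1, 2 and 3. Untreated, 249 genes (160 and 89) became 1010 (571 and 439) after the GC correction, and 126 to 319 with a library left out (76 to 200 higher, 41 to 119 lower).

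The difference between both effects called 4 genes (2 and 2). It called 652 (190 and 462) after the GC correction, 31 (14 and 17) with DESeq2 and 20 (11 and 9) without both libraries that stood apart. Median-of-ratios factors gave 3 (1 and 2), and upper-quartile factors or no low-count filter 0 (0 and 0). With a library left out it called 0 to 7 (0 to 4 higher, 0 to 3 lower), and 0 in most of these fits.

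Correlations of deviations from the group mean between same-numbered treated libraries were 0.35, −0.39 and −0.57 (untreated 0.46, 0.03 and 0.38). In neither treatment did every library match its own number best. These deviations were not GC-corrected and themselves correlated with GC content. Their Spearman correlations were 0.71, 0.42 and −0.72 in treated control-vector libraries 1 to 3, and 0.48, −0.67 and 0.58 in treated knockdown libraries 1 to 3. The check therefore cannot decide whether replicate numbers pair the libraries. A replicate block shared across groups gave 620 calls with fulvestrant (374 higher, 246 lower), 145 untreated (95 and 50) and 0 (0 and 0) for the difference. A replicate block within each treatment gave 525 (309 and 216), 82 (50 and 32) and 0 (0 and 0), and together with the GC correction 2526 (1163 and 1363), 650 (381 and 269) and 257 (66 and 191). Of 93 called genes under the naming rule 0 reversed in any alternative. Between 49 (only the 6 treated libraries) and 90 of them kept their call.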

Other observations

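The genes below were chosen after their values were seen, from the 198 called in all 22 alternative settings, and carry no support beyond the adjusted p-values of edgeR. Both regulatory subunits of the epithelial sodium channel were higher in treated knockdown cells: SCNN1B had 1.83, 2.32 and 1.91 CPM in the controls and 4.59, 3.89 and 4.79 in the knockdown libraries (log2 fold change 1.13), and SCNN1G 2.43, 1.88 and 2.46 against 4.64, 4.85 and 5.59 (1.15). The gene of the alpha subunit, SCNN1A, was not called (0.19, adjusted p = 0.218). The NMDA receptor subunit genes GRIN2A and GRIN2B were higher by 1.47 and 1.59, and by 1.68 and 1.55 in untreated cells. CRABP2, a retinoic acid carrier, changed by 1.07 and RARRES1, a retinoid-responsive gene, by 0.79. The secreted factors BMP3 and MGP rose by 2.08 and 1.47.

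Among genes lower in the same comparison, DNMT1, the maintenance methyltransferase gene, read 288, 265 and 226 CPM against 180, 159 and 183 (−0.58, adjusted p = 0.00279), and the chromatin remodelling partners HELLS and CDCA7 changed by −0.57 and −0.72. UHRF1, which recruits DNMT1, was not called (−0.84, adjusted p = 0.0738). The receptor tyrosine kinase gene AXL fell by 0.74 and the TGF-beta co-receptor gene TGFBR3 by 0.93 on the log2 scale. The sestrin gene SESN3 rose by 1.21, whereas its paralogue SESN1 was not called (0.03, adjusted p = 0.895).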
